A study of Mus musculus with 2 samples.

Results

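Quaking (Qk) and 4 further RNA-binding protein genes of myelin biology, Hnrnpa2b1, Hnrnpa1, Mbnl1 and Mbnl2, were examined in cerebrum RNA at postnatal day 14. The genes were chosen with earlier results of these data known, and a probe set was taken for a gene only where the array's annotation pairs it with that gene alone. This gave 22 probe sets for the 5 genes, of 34958 probe sets and 18194 genes in all. Total RNA of 1 wild type sample and 1 sample of the laggard (lag) mutant was hybridised to Affymetrix whole-genome mouse arrays, with 1 array per genotype. The lag mutation is a recessive change at a splice acceptor site of Kif14, a kinesin gene. It arose spontaneously in a stock of mixed strain origin and was crossed onto C57BL/6J, and the control was a littermate. The sources used here do not give the number of mice behind each RNA. No cell type was isolated, so in this bulk RNA fewer cells of a type and less RNA per cell cannot be told apart. The 1 probe set of Kif14 read 6.85 in wild type and 0.733 in mutant RNA, both under the background level of 56.5 (a high percentile of the signals of gene families silent in brain), so it does not check the labels. By real-time PCR the authors saw no noticeable difference in Kif14 mRNA level between mutants and littermate controls. A brighter signal would therefore not be a check of the labels either. Of the cerebrum genes fixed as tissue markers, Neurod6 and Tbr1 were above background on both arrays, with signals of 3338 and 4557 for Neurod6 and 992 and 1639 for Tbr1 in wild type and mutant. A single array per genotype gives no measure of how mice differ, so every value below is a description and no test was made.

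Quaking is a KH-domain protein of the STAR family that binds mRNA and controls its splicing, stability, export and localisation. Alternative 3' ends of the gene give a nuclear form and cytoplasmic forms, and the dysmyelinated quaking viable mouse lacks the cytoplasmic forms in its oligodendrocytes. The hnRNP A2/B1 protein binds a short element in Mbp mRNA and takes part in carrying that mRNA into oligodendrocyte processes, where myelin basic protein is made. Its relative hnRNP A1 acts mainly in nuclear splicing. Mbnl1 and Mbnl2 encode muscleblind zinc finger proteins, which regulate splicing and mRNA localisation in brain and muscle.

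Of the 7 probe sets of Qk, 6 had a lower signal in the mutant and 1 a slightly higher one, and 2 were at least 2-fold lower. The signal, a linear intensity calculated by the authors with MAS5.0, is given here for the wild type and then for the mutant. The 3 brightest probe sets were lower by modest amounts. The brightest, 1417073_a_at, had signals of 6141 and 5380, which is 1.14-fold lower. Probe set 1451179_a_at had signals of 3452 and 3027, again 1.14-fold lower. Probe set 1429318_a_at had signals of 3676 and 2591, which is 1.42-fold lower. For comparison the measured probe sets were split by mean signal into 4 bins of equal size, bin 1 the dimmest. Among the 6088 probe sets of bin 4, 1.56% had a log2 ratio as low as that of 1429318_a_at and 13.4% one as low as that of 1417073_a_at.

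The dimmer Qk probe sets spread further. Probe set 1429735_at had signals of 844 and 401, which is 2.11-fold lower and a log2 ratio of -1.08. The dimmest, 1425597_a_at, had signals of 140.3 and 58.2, which is 2.41-fold lower and a log2 ratio of -1.27. The mutant signal of 1425597_a_at lay just above the background level of 56.5, whereas that of 1429735_at was well above it. Probe set 1441964_at had signals of 162 and 121, a log2 ratio of -0.43. Probe set 1429736_at was the exception to the lower signals, at 291 and 324, a log2 ratio of 0.16. The array held 24353 measured probe sets, those with a signal over the background level in either sample. Of these, 1.23% were lower by 2-fold or more in the mutant and 0.645% were higher by as much. For Qk 2 of 7 were lower by 2-fold or more. The share of lower probe sets was 1.99% in bin 1, which holds 1425597_a_at, 1.76% in bin 2, 0.723% in bin 3, which holds 1429735_at, and 0.443% in bin 4. The share of higher ones was 1.02%, 1.12%, 0.329% and 0.115% in the same order, so 2-fold differences were more frequent among dim probe sets. The authors chose Qk for their list of lowered genes on these same samples, so its lower signal is not independent evidence of a direction. They give Qk as 2.41-fold lower, which equals the value of 1425597_a_at, the dimmest Qk probe set. The brightest was 1.14-fold lower.

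**Figure D1:**
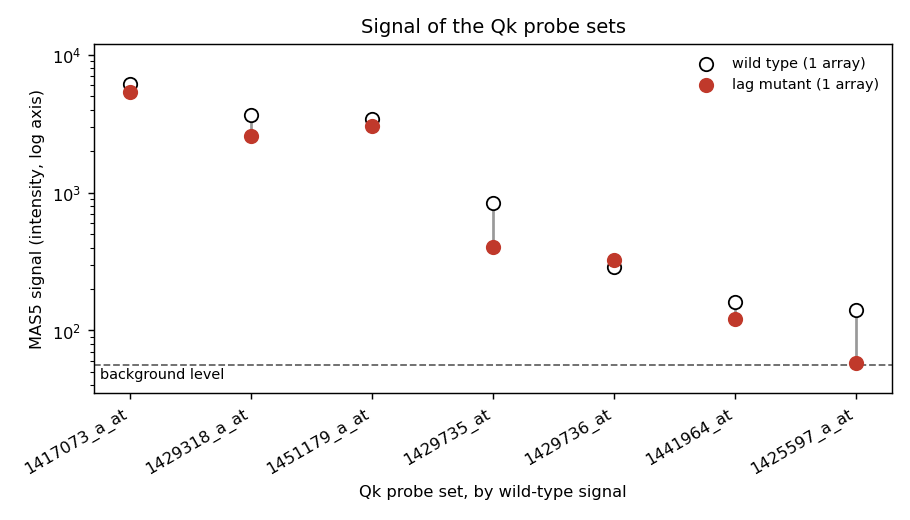
MAS5 signal (log axis) of each of the 7 Qk probe sets on the wild-type array (open circles) and the lag mutant array (red circles), with a grey line joining the 2 values of a probe set and a dashed line at the background level of 56.5. The widest gaps are those of 1429735_at, from 844 to 401, and 1425597_a_at, from 140.3 to 58.2, while 1429736_at was slightly higher in the mutant.

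Probe sets of Qk were further apart than those of the other members, which had 5 measured probe sets or fewer. Their log2 ratios ran from -1.27 to 0.16, a range of 1.43, with a median of -0.43. Of 37 genes with 7 measured probe sets, 5, Qk included, had a range at least as wide, and the median range was 0.93. Of the 6347 genes with at least 2 measured probe sets, 93 (1.47%) had 1 probe set at least 2-fold lower and another that was not lower, as Qk did. These genes include 1553 with 3 measured probe sets, where the median range was 0.41, and 676 with 4, where it was 0.53. More probe sets give more room to disagree, so this share is not one for genes with 7 probe sets. The suffix of a probe set gives part of what it reads. In the design of this array "_a_at" marks a probe set that matches several transcripts of 1 gene, and 4 of the 7 Qk probe sets carry it, among them the 3 brightest. Which probe set reads which quaking isoform is not stated in the tables used here, so a lower probe set is not assigned to a nuclear or a cytoplasmic form.

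The annotation lists a source sequence for most probe sets, and 1429735_at and 1429736_at of Qk share one. Their log2 ratios of -1.08 and 0.16 lie 1.23 apart. Such pairs, 2 measured probe sets of 1 gene listed with the same source sequence, numbered 2191 over the array. Their median gap was 0.21, and 22 of them, the Qk pair included, had a gap as wide as that of Qk. Among 861 pairs whose dimmer probe set had a mean signal within 2-fold of that of the Qk pair, 1.28% were as far apart. A like pair exists for 3 other members. The gap was 0.30 for the Hnrnpa2b1 pair, at log2 ratios of -0.34 and -0.042, and 0.40 for the Mbnl2 pair, at 0.31 and -0.094. It was 0.0043 for the Hnrnpa1 pair, at 0.038 and 0.034. Of the 4 members with such a pair, Qk thus had the widest gap.

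**Figure D2:**
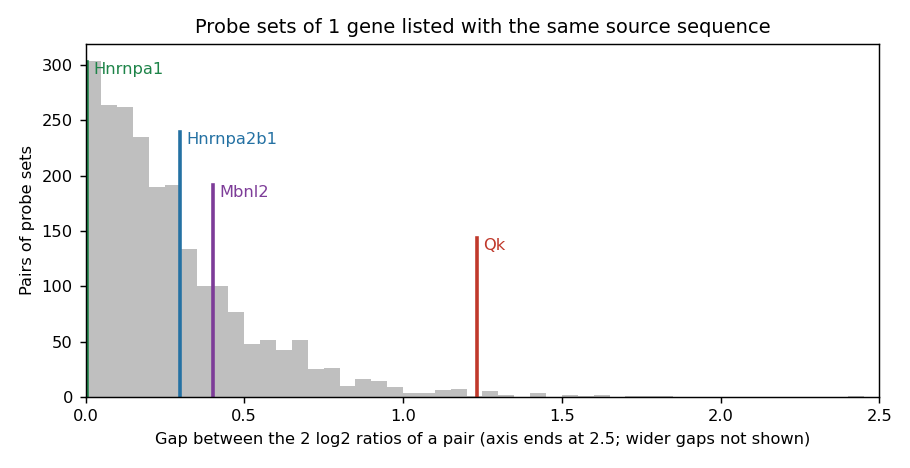
Histogram of the gap between the log2 ratios (mutant over wild type) of 2 probe sets of 1 gene listed with the same source sequence, over 2191 pairs, with 2 gaps beyond the end of the axis at 2.5. Coloured lines mark the pairs of 4 members: the Hnrnpa1, Hnrnpa2b1 and Mbnl2 pairs lie among the bulk, at 0.0043, 0.30 and 0.40, and the Qk pair lies in the tail at 1.23.

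No probe set of Hnrnpa2b1 differed 2-fold, and the largest difference was 1.27-fold. The brightest, 1420365_a_at, had signals of 10084 and 11104, which is 1.10-fold higher in the mutant. The other 3 were lower. Probe set 1433829_a_at had signals of 3857 and 3047, 1.27-fold lower, and 3.84% of the probe sets of bin 4 had a ratio as low. Probe sets 1434047_x_at, at 2311 and 2180, and 1433830_at, at 1677 and 1629, were 1.06-fold and 1.03-fold lower. The direction for this gene therefore depends on the probe set: its log2 ratio was 0.14 by the brightest one and -0.082 by the mean of all 4.

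Hnrnpa1, which encodes the related splicing factor and whose own mRNA is a reported quaking target, was higher by about the same small amount on each of its 3 probe sets. Signals were 2843 and 2908 for 1455305_x_at, 1817 and 1865 for 1436549_a_at, and 177 and 181 for 1455740_at. The log2 ratios were 0.032, 0.038 and 0.034. A further 3 probe sets are paired with Hnrnpa1 together with near-identical gene copies and were not used. Probe sets ending in "_x_at", such as 1455305_x_at, can also hybridise to similar transcripts, so the value of Hnrnpa1 is uncertain to that extent.

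For the muscleblind genes, too, no measured probe set differed 2-fold. Mbnl1 was read above background by 1 of its 3 probe sets, 1416904_at, with signals of 2581 and 2698, which is 1.05-fold higher in the mutant. The other two Mbnl1 probe sets were under background on both arrays, at 32.9 and 17.1 for 1457924_at and 23.2 and 19.5 for 1440315_at, and give no fold change. Mbnl2, the muscleblind gene best known for its splicing role in brain, had 5 measured probe sets, 3 higher and 2 lower. The brightest, 1433754_at, had signals of 2887 and 2960, which is 1.03-fold higher, and 1455827_at, at 2035 and 1906, was 1.07-fold lower. Probe set 1436858_at had signals of 523 and 647, 1.24-fold higher. The dim probe sets 1457477_at, at 100.1 and 79.7, and 1457237_at, at 67.4 and 76.4, differed in opposite directions. The log2 ratios of Mbnl2 ran from -0.33 to 0.31, a range of 0.64 beside a median range of 0.65 over the 256 genes with as many measured probe sets.

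Of the 22 probe sets of the 5 genes, 20 were above background on at least 1 array. Besides the 2 of Qk, none was at least 2-fold lower, and none of the 20 was at least 2-fold higher. For Hnrnpa2b1, Hnrnpa1, Mbnl1 and Mbnl2 together, 5 of 13 measured probe sets were lower and 8 higher, with a median log2 ratio of 0.034, beside 0.0069 over all measured probe sets. By the brightest probe set of each gene, all 5 genes differed by less than 2-fold, with Qk at a log2 ratio of -0.19, Hnrnpa2b1 at 0.14, Mbnl1 at 0.064, Mbnl2 at 0.036 and Hnrnpa1 at 0.032. In the same way of counting, 0.932% of 13522 measured genes were lower by 2-fold or more and 0.614% higher. Neighbours in this order cannot be told apart with 1 array per genotype, and signals of different probe sets are not levels that can be ranked between genes.

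**Figure D3:**
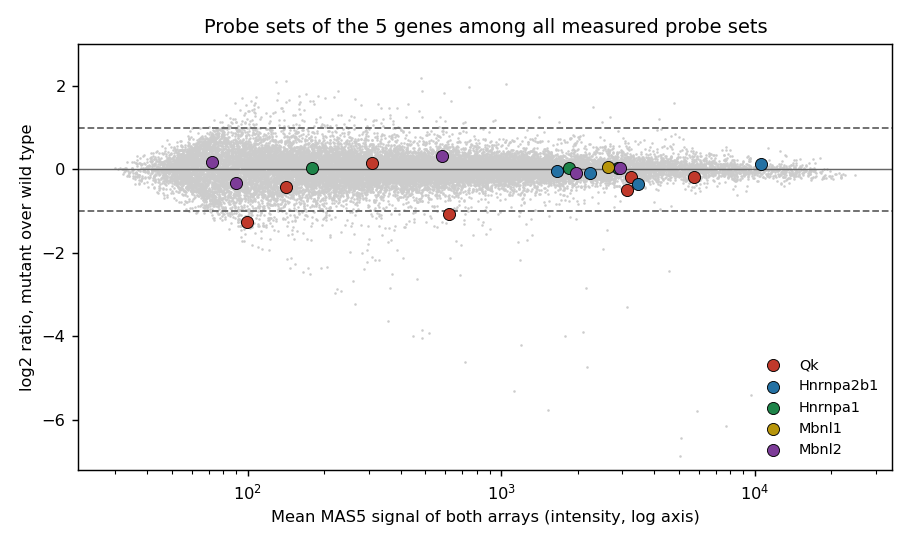
Log2 ratio of signal, mutant over wild type, against the mean signal of both arrays (log axis) for 24353 measured probe sets (grey) and for the 20 measured probe sets of the 5 genes (coloured), with dashed lines at 2-fold. The 2 Qk points below the lower dashed line, at -1.08 and -1.27, are the only coloured points beyond 2-fold.

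The genes with a log2 ratio nearest to that of Qk by its brightest probe set, over these 2 arrays, were Pnisr, Ficd, Irs1, Kdelr2 and Ptpa, each at -0.19. Pnisr, which encodes a splicing-associated protein, had signals of 2060 and 1805, and Irs1, an insulin receptor substrate, 2091 and 1832. Of 12705 genes compared, 1328 lay within 0.05 of Qk, so nearness in this ratio does not set any gene apart.

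Other RNA-binding proteins were measured from lists of families and partners. Of 76 measured genes on 6 lists, none was at least 2-fold lower, 1 was at least 2-fold higher and 75 lay within 2-fold, with a median log2 ratio of -0.034 beside 0.01 over all measured genes. Over all measured genes 0.932% were lower by 2-fold or more and 0.614% higher. Counted by probe set, none of their 227 measured probe sets was lower by 2-fold or more. Higher by as much were 3, 1 each of Msi2, Ptbp1 and Taf15. Over all measured probe sets the shares were 1.23% lower and 0.645% higher. With shares this low, lists of this size would hold few such genes or probe sets, so these counts do not set the lists apart. Of 53 genes on these lists with 2 or more measured probe sets, 3 had a range as wide as Qk, namely Sf1, Elavl1 and Msi2, and the median range was 0.40. This comparison is not matched for the number of probe sets, which is 7 for Qk. Over the array the median range was 0.41 for genes with 3 measured probe sets and 0.93 for those with 7. Msi2, Ptbp1 and Elavl1 were picked with their values known. The STAR family, to which quaking belongs, had 3 of 4 measured genes lower, with a median of -0.19. Sf1, a branch point binding splicing factor, had signals of 8962 and 7549, and Khdrbs1 (Sam68) 4272 and 3796. By the brightest probe set, Sf1 at a log2 ratio of -0.25 was thus lower than Qk at -0.19, and Khdrbs1 was at -0.17. The 4 measured probe sets of Sf1 ran from -0.91 to 0.62, a wider range than that of Qk. The genes for carrying Mbp mRNA and for its transport granules had a median of -0.051 over 11 measured genes, 7 of them lower. Hnrnpk, which binds RNA in these granules, had signals of 11810 and 12533, and Hnrnpab 8962 and 8649. The hnRNP list has the same 2 brightest genes. Fyn, a kinase that phosphorylates granule proteins, had the lowest ratio on the transport list at -0.42, and was named after its values were seen.

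Over 22 measured genes of the hnRNP family the median was -0.066, with 14 lower and 8 higher, in a span from -0.50 for Hnrnpc to 0.47 for Hnrnpr. Hnrnpr was not uniform either, as its 5 measured probe sets ran from -0.70 to 0.47. Both genes were named after their values were seen. Mbnl3 and the Celf genes, whose products act against or beside muscleblind proteins in splicing, had a median of -0.017 over 7 genes. Celf1 had signals of 9532 and 8891, and Celf4 8082 and 8535. Mbnl3 was under background in the wild type at 21.7 and at 57.5 in the mutant, barely above the level. Of 22 measured neural splicing factors 11 were lower and 11 higher, with a median of 0.0018. Rbfox3, the neuronal nuclear antigen NeuN, had signals of 7435 and 7957, and Elavl2, a neuronal ELAV-like protein, 6545 and 6827.

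Among 16 measured genes for other mRNA-binding regulators, 10 were higher and 6 lower, with a median of 0.052. Cpeb4, which controls polyadenylation in the cytoplasm, had signals of 6968 and 7665, and Ewsr1 3826 and 3354. Taf15, of the same FET family as Ewsr1, was the 1 gene of the 6 lists that passed 2-fold, with signals of 75.7 and 263, which is 3.47-fold higher. Its wild-type signal was close to background, and its other probe set was below the background level in both samples.

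**Figure D4:**
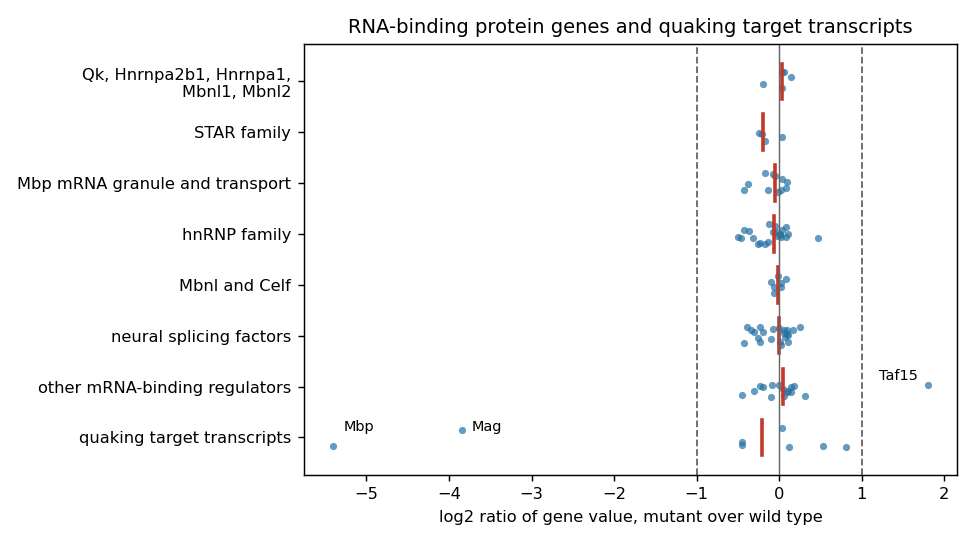
Log2 ratio of gene value, mutant over wild type, for the 5 genes, 6 lists of other RNA-binding protein genes and the list of quaking target transcripts. Points are genes, red marks are list medians, and dashed lines mark 2-fold; Taf15 lies beyond 2-fold on the higher side, and Mbp and Mag on the lower side.

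Transcripts reported as bound or regulated by quaking differed in both directions. By the brightest probe set of each, 4 of the 8 measured had a lower signal, for 2 of them by over 2-fold, and 4 a higher one, none by 2-fold. The median log2 ratio was -0.21. The 2 were myelin genes. Mbp had signals of 18812 and 444, which is 42.3-fold lower by its brightest probe set, though its 8 measured probe sets ran from -6.85 to 0.14 on the log2 scale. Mag, a myelin-associated glycoprotein whose splicing quaking controls, had signals of 910 and 63.5, 14.3-fold lower. The targets outside myelin differed less. Cdkn1b, a cell cycle inhibitor, had signals of 1966 and 1440, and Pdcd6ip, an endosomal sorting protein, 516 and 377. Egr2, a regulator of Schwann cell myelination, had signals of 145 and 209, and Gfap, the astrocyte filament gene, 156 and 274. Map1b, a microtubule-associated protein gene, had 6346 and 6879. With Hnrnpa1 at 2843 and 2908, these 6 lay within 2-fold. The direction of several depended on the probe set. Log2 ratios ran from -0.45 to 0.28 for Pdcd6ip and from -0.25 to 0.53 for Egr2. They ran from -0.39 to 0.20 for Map1b and from -0.014 to 0.81 for Gfap. The split by direction therefore holds for the brightest probe sets only. The lists overlap here, since Mbp and Mag are also markers of mature oligodendrocytes.

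Markers of the cells that carry quaking were set beside these values. Oligodendrocytes and astrocytes express Qk strongly and neurons little. Of 9 measured genes that mark mature oligodendrocytes, 8 were lower by 2-fold or more and 4 were under background in the mutant, and they summed to 31880 and 2393. Mbp, given above, and Cnp, at 7730 and 1434, were the brightest. For 6 genes listed as precursor markers, 3 of them lower by 2-fold or more, the sums were 12913 and 5739, with Olig1 at 6031 and 3267 and Pdgfra at 2508 and 1481. The authors' list of lowered genes holds Olig1, Olig2, Sox10 and Gpr17, and they report its genes as rising while oligodendrocytes mature. These sums therefore do not stand for precursors alone. The 3 measured probe sets of Pdgfra ran from -0.76 to 0.14. By the brightest probe set, no marker of astrocytes, neurons, microglia or endothelium differed by 2-fold. Counted by probe set, 1 of 23 astrocyte probe sets did, a dim one of Slc1a3 at a log2 ratio of -1.27. None of the 14 neuron, 10 microglia and 8 endothelium ones did. The shares over all measured probe sets were 1.23% lower and 0.645% higher, so few would be met among so small a number. Slc1a3, named after its values were seen, was at 0.11 by its brightest probe set. The 6 astrocyte markers summed to 34269 and 31162, with Slc1a2 at 13097 and 11696 and Gja1 at 9823 and 9101. Of these 6, 4 were lower and 2 higher, the latter Slc1a3 and Gfap, whose log2 ratio was 0.81. The sums were 74645 and 73349 for the 6 neuron markers, with Stmn2 at 17992 and 16820 and Snap25 at 15349 and 16408. The 6 microglia markers summed to 7384 and 9004, with Csf1r at 4169.7 and 4511 and C1qa at 1018 and 1370.2, and the 5 endothelial ones to 3198 and 2588, with Cldn5 at 1649.6 and 1419.5 and Kdr at 659 and 496. The median log2 ratio of the mature oligodendrocyte markers was -2.43. By the brightest probe set of each marker, the highest of these was Opalin at -0.99. The 3 brightest Qk probe sets, at -0.19 to -0.50, were above it. So were 1441964_at, at -0.43, and 1429736_at, at 0.16. The mutant signal of Opalin, 49.7, was raised to the background level for its ratio. Probe sets 1429735_at and 1425597_a_at, at -1.08 and -1.27, were within the span of the mature markers. They were also within that of the precursor list, -4.2 to -0.76. These spans take 1 probe set per marker, whereas Qk is shown by each probe set. By probe set, Mbp ran up to 0.14, and the other measured mature markers were at or below -0.99. Pdgfra of the precursor list also ran up to 0.14. Counted so, only 1429736_at of Qk lay above either list. The part of these markers in the Qk values was not tested. The 5 cerebellum markers summed to 7115 and 8136, led by Zic1 at 4938 and 6469 and Cbln1 at 1636 and 1568, but Pcp2, at 271 and 36.2, Gabra6, at 144 and 41.6, and En2, at 126 and 21.6, were under background in the mutant only. These 3 were named after their values were seen, and the part of dissection was not tested. For Actb, the 3' control probes read 1.55 times the 5' ones in wild type and 1.38 times in mutant RNA, and for Gapdh 0.819 and 0.772 times. These ratios bear on how intact the RNA was, and their part in the disagreement between Qk probe sets was not tested.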

How the data were processed

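RNA of 1 wild-type and 1 mutant cerebrum sample was measured. The authors made the deposited intensity values, 1 per probe set, in MAS5.0 with its defaults and global scaling. The sources used here do not give the scaling target. Log2 ratios, mutant over wild type, came from these linear values. The annotation pairs 34958 of 45101 probe sets with 1 gene, 932 with more and 9211 without a gene. Gene identifiers matched the GRCm38.p6 RefSeq table for 34754, which gave current symbols. The members and lists were chosen with earlier results of these data known.

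The background level was the 95th percentile of 153 probe sets of families such as olfactory receptors, 56.5 for wild type and 50.9 for mutant. The higher level served for both, so that raising a signal to it cannot turn a direction. A probe set was measured when above it on either array. A gene took its probe set of highest mean signal. Median signals were 105 and 98.3. Named were all Qk and all measured member probe sets, RNA-binding list genes that differed 2-fold, the 2 brightest genes of each such list and of each marker list, the quaking targets and the 5 genes nearest to Qk. Any other gene was named with its values already seen. The counting was tested on simulated data. Alternatives changed normalization, background level, probe set and fold. The number of arrays limits the precision. Python 3.11.15, numpy 2.4.6 and pandas 2.3.3 were used.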

Additional observations from a re-analysis of the deposited data

How the results depend on the processing

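No paired analysis was possible because there was only 1 array for either genotype, and for the same reason no replicate could be left out. With the probe set of largest decrease, which by construction takes the lowest ratio, the log2 ratio was -1.27 for Qk, -0.34 for Hnrnpa2b1 and -0.33 for Mbnl2, and list medians were -0.32 for the STAR family, -0.17 for Mbp mRNA transport, -0.21 for neural splicing factors and -0.22 for other regulators. With the mean over probe sets Qk was at -0.50 and Hnrnpa2b1 turned from 0.14 to -0.082. The 2 lower Qk probe sets ranged from -1.08 to -1.05 and from -1.27 to -1.20 over the normalizations and background levels that measured them. With the level at the 99th percentile, 156, probe set 1425597_a_at was under background on both arrays, so 1 member probe set was at least 2-fold lower, 1441964_at had a ratio of -0.052, and 0 RNA-binding genes were higher; with no level 2 were. Genes at least 2-fold lower numbered 126, and 67 at the 99th percentile, 980 with no level, 256 with the largest decrease and 439 at 1.5-fold. Genes higher numbered 83, and 145 at the 90th percentile, 1232 with no level, 31 at the 99th percentile and 525 at 1.5-fold. A level per array, added after the data were seen, gave 135 genes lower and 83 higher and left the 2 lower member probe sets, both of Qk, at -1.08 and -1.27. Signals near background limit the dim probe sets.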
